A study of Arabis alpina with 23 samples.

Results

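Shoot apical meristems (SAM) of the perennial crucifer Arabis alpina were compared at both ends of a long cold period. The members of the comparison were 6 of the 23 libraries of the series, 3 from SAM stage 4 and 3 from SAM stage 2, taken from the labels of the table of total mapped reads. All plants were of the Pajares accession, in long days of 16 h light and 8 h darkness, with 24 °C by day and 18 °C by night before the cold. Stage 2 plants had grown for 8 weeks without cold, and stage 4 plants had spent 7 weeks at 4 °C. Below, "after the cold" means at stage 4, and no stage is labelled as a return to warmth. Each biological replicate pooled 120 to 150 apices, dissected with 1 leaf primordium still attached. The other libraries were SAM at stages 1 (4 weeks of growth) and 3 (4 weeks of cold) and axillary buds (AB) with 1 leaf primordium at all 4 stages. The cold, the added age of the plants and the temperature at harvest differ together between stages 2 and 4 and cannot be told apart. In pooled tissue, fewer cells of a type and less RNA per cell cannot be told apart either.

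Vernalization is the acquisition of the ability to flower through prolonged cold. In Arabidopsis it acts by stable silencing of FLC, a MADS-box repressor of flowering, by Polycomb proteins that VIN3 helps to recruit during cold. In A. alpina the FLC ortholog PEP1 also holds back flowering, and flower formation begins while the plants are still in the cold. The stages sampled here do not show whether a fall of this gene lasts beyond the cold. Once repressors decline, integrators such as SOC1 and the SPL factors promote LFY and AP1, which turn new primordia on the flank of the meristem into flowers.

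The 6 libraries held 16318298 to 26218502 counts, with stage 4 replicate 1 the deepest, and 22725 to 23297 genes were detected in each. Levels are given as CPM, the count per 1000000 counts of the scaled library size. The meristem markers STM, KNAT1 and WUS were detected in all 6 libraries. The summed CPM of the 7 meristem markers was 639.1 to 700.3 at stage 2 and 556.6 to 596.6 at stage 4, without overlap. Among these 7 markers 2 were higher and 3 lower, 71.4% beside 33.7% of all genes, with a median log2 change of −0.38. Of markers of other cells, 2 of 13 vascular genes were higher and 2 lower. No trichome gene of 4 passed the test, and 1 of 3 stomatal genes was lower. The shares called were 30.8% of vascular and 33.3% of stomatal genes, near the 33.7% of all genes. That stomatal call, BASL (Aa_G165640), was lost in 8 of 15 alternatives, among them without stage 2 replicate 2 or 3 or without any 1 of the stage 4 replicates. For shoot epidermis, 5 of 9 markers were higher and none lower, beside 16.9% and 16.8% of all genes. Their summed CPM went from 1822 to 2489 at stage 2 to 2781 to 3004 at stage 4. The part of epidermal cells in other results was not tested.

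Libraries of a group were not alike for every gene. In stage 4 replicate 2, 63 genes at 5 CPM or more stood at least 4-fold above both other replicates, against 2 in replicate 1 and 8 in replicate 3. At stage 2 the numbers were 1, 25 and 4. LOX2 (Aa_G49590), a lipoxygenase of jasmonate synthesis chosen here after its values were seen, stood at 0.267, 96.2 and 0.181 CPM at stage 2 and at 2.09, 178 and 8.16 CPM at stage 4. Replicate 2 was thus the high library for LOX2 in both groups, and the change did not pass the test (edgeR adjusted p = 0.695). Of the 8 genes apart in stage 4 replicate 3, 4 belonged to the floral identity list. The rule for these counts and WRKY40, plotted with LOX2, were chosen after the data were seen.

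Of 21414 genes tested, 7218 (33.7%) differed between stage 4 and stage 2 at an adjusted p under 0.05 in edgeR's quasi-likelihood test with Benjamini-Hochberg adjustment. Of these, 3613 (16.9%) were higher after the cold and 3605 (16.8%) lower. Most changes were modest, with 2592 of the higher and 2462 of the lower genes changing by less than 1 on the log2 scale. Genes past the test that changed by at least 1 numbered 1021 higher (4.77%) and 1143 lower (5.34%). Changes of at least 4 on that scale were found for 134 higher and 145 lower genes. The 3 libraries of one stage did not overlap those of the other for 10010 genes (46.7%), and for 6968 of the genes that passed. Without stage 4 replicate 2 the test called 6002 genes, and without stage 4 replicate 3 it called 5853. At the middle of the cold, 5196 genes (24.3%) differed between SAM stages 3 and 2, and 1965 (9.18%) between stages 4 and 3. Those comparisons share libraries with the one reported here, so their values are given only side by side.

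**Figure D1:**
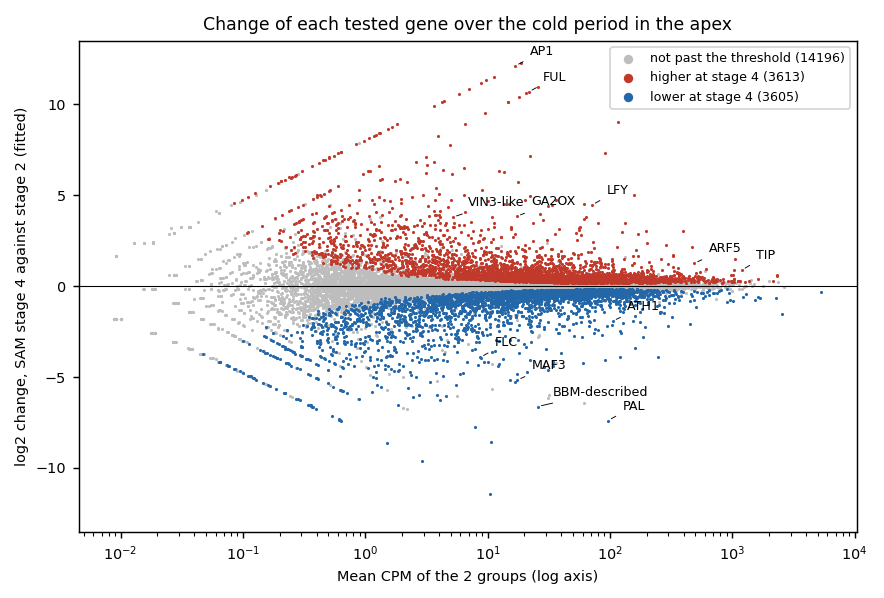
Fitted log2 change of each of the 21414 tested genes from SAM stage 2 to stage 4 (vertical axis) against its mean CPM (horizontal, log axis), with 3613 genes higher in red, 3605 lower in blue and the rest in grey. The labelled genes are described in the text, and the diagonal lines of points at both edges are genes with no or few reads in a group, whose fitted change is no bound.

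Of 22 tested repressors of flowering 12 fell over the cold and none rose, so that 54.5% passed beside 33.7% of all genes (16.8% lower). The gene described as FLC (Aa_G579940, chromosome 8, 6184468 to 6185945 of the version 5 assembly) stood at 16.6, 15.2 and 17.4 CPM in the stage 2 libraries and at 1.27, 1.10 and 0.827 CPM at stage 4. All 3 cold libraries were far below the lowest stage 2 library. FLC fell by 3.91 ± 0.25 on the log2 scale (SE of the fit, n = 3 and 3, edgeR adjusted p = 3.66e-10). At stage 3 its libraries already stood at 3.34, 2.79 and 1.41 CPM. The deposited model of this gene has a coding length of only 180 bp.

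The MAF genes are close relatives of FLC that also repress flowering in Arabidopsis. Of 5 tested members 3 fell, beside 16.8% of all genes. MAF3 (Aa_G585310) went from 36, 30.0 and 36.4 CPM to 0.927, 1.70 and 0.221 CPM, a fall of 5.16 ± 0.52 on the log2 scale (edgeR adjusted p = 1.42e-06). A second gene described as MAF3 (Aa_G720620) stood at 48.8, 43.5 and 49.9 CPM before and 9.81, 12.6 and 7.39 CPM after the cold, and fell by 2.25 ± 0.14. Neither gene overlapped between the stages, and another (Aa_G476870) fell by 1.44 ± 0.16. At stage 3 the mean was 15.8 CPM for Aa_G585310 and 37.2 CPM for Aa_G720620. MAF2 (Aa_G585300) had a change of −0.07 ± 0.16 (edgeR adjusted p = 0.759). MAF4 (Aa_G585330) had a change of −0.48 ± 0.30, with an adjusted p of 0.241 that became 0.0478 without stage 2 replicate 3.

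The AP2-like factors of the TOE group delay flowering and are targets of miR172. Of 4 members 3 fell, beside 16.8% of all genes. All 3 carried the description RAP2-7, another name of TOE1. The most abundant (Aa_G234670) stood at 239, 210.0 and 181 CPM at stage 2 and at 33.1, 39.7 and 33.1 CPM at stage 4, with no overlap, a fall of 2.57 ± 0.17 (edgeR adjusted p = 2.36e-09). The other two fell by 1.98 ± 0.13 (Aa_G158280) and 1.87 ± 0.13 (Aa_G207710). TOE2 (Aa_G580860) had a change of −0.10 ± 0.30 (adjusted p = 0.827).

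ATH1, a BELL-type homeobox gene that promotes FLC expression in Arabidopsis, was at 174, 165 and 163 CPM before and 41.4, 44.5 and 47.7 CPM after the cold (Aa_G58550). It fell by 1.91 ± 0.12 (edgeR adjusted p = 3.66e-10), and the groups were widely separated. SVP (Aa_G311490), a MADS-box partner of FLC, was at 232, 199 and 236 CPM and then at 165, 155 and 145 CPM. Its fall was small, 0.52 ± 0.092 (adjusted p = 0.00016), although the libraries did not overlap. The stage 3 mean of SVP was 216.2 CPM, close to that of stage 2 (adjusted p = 0.78 for stage 3 against 2 and 0.00222 for stage 4 against 3).

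Of the 24 members of the list of floral repressors, 22 passed the filter on low counts. The list median was −1.03, against −0.0062 over all genes tested. The members that did not pass included MAF2, MAF4 and TOE2 and 6 of the 8 RAV/TEM genes. The TFL1 gene did not pass the filter.

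Of 16 tested vernalization and Polycomb genes 2 rose and 2 fell, 25% beside 33.7% of all genes, and 1 of the rises was large. A gene described as VIN3-like (Aa_G307430) was at 0.426, 0.763 and 0.907 CPM before and at 10.5, 9.34 and 9.38 CPM after the cold. It rose by 3.80 ± 0.34 (edgeR adjusted p = 3.5e-08), with values of 2.67, 3.86 and 6.45 CPM at stage 3, between both groups. The other tested VIN3-like genes did not pass, with changes of 0.14 ± 0.071 (Aa_G183140), −0.18 ± 0.080 (Aa_G368090) and −1.06 ± 0.47 (Aa_G190150). A VRN1-like B3 factor (Aa_G108140) fell by 0.30 ± 0.080 (edgeR adjusted p = 0.00579). VRN1 in Arabidopsis keeps FLC silent after cold, and the gene described as VRN1 itself did not pass, with a change of −0.03. The list median was 0.00. EMF2 (Aa_G83980, 0.19 ± 0.060) and LHP1 (Aa_G325610, −0.24 ± 0.078), both parts of Polycomb silencing, were the other calls. EMF2 lost its call in 7 of 15 alternatives, among them without stage 2 replicate 3 or stage 4 replicate 1 or 3. LHP1 lost its call in 5 of 15, among them without stage 2 replicate 1 or 3 or stage 4 replicate 3, which left 1 member in that direction each time.

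Of 21 tested integrators and age pathway genes 10 rose and 4 fell (66.7% beside 33.7% of all genes), with a list median of 0.45. SOC1 (Aa_G15970), a MADS-box integrator of the flowering pathways, was at 3.78, 4.96 and 5.14 CPM and then at 19.8, 21.6 and 17.8 CPM, a rise of 2.09 ± 0.19 (edgeR adjusted p = 4.09e-08). FUL (Aa_G862480), a MADS-box gene of the meristem's transition, had 1 read in all of stage 2 and stood at 45.5, 40.6 and 44.1 CPM at stage 4 (adjusted p = 9.48e-07). Its deposited model has a coding length of 213 bp. At stage 3 FUL was at 9.51, 7.58 and 25.9 CPM, above every stage 2 library and below every stage 4 library. AGL42 (Aa_G131050), a relative of SOC1, had a change of 0.09 ± 0.17 (adjusted p = 0.729).

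The SPL factors promote flowering with age and are in part targets of miR156. Of 16 tested SPL genes 8 rose and 3 fell, beside 16.9% and 16.8% of all genes. SPL8 (Aa_G106150) went from 3.57, 7.58 and 3.99 CPM to 105, 120.0 and 127 CPM, a rise of 4.53 ± 0.39 (edgeR adjusted p = 2.43e-07). SPL4 (Aa_G381970) went from 1.65, 2.51 and 3.63 CPM to 73.2, 65 and 71.9 CPM, a rise of 4.76 ± 0.54 (adjusted p = 8.47e-06). A second gene described as SPL4 (Aa_G438780) stayed at or below 1.49 CPM in the 6 libraries and did not pass (adjusted p = 0.46). SPL8 and Aa_G381970 did not overlap between the stages, and at stage 3 the replicates of Aa_G381970 ranged from 8.65 to 51.1 CPM. SPL10 (Aa_G61880) rose by 1.73 ± 0.18, from 23.2 to 28.7 CPM to 82.8 to 84.4 CPM. The falls were small, the largest being 0.71 ± 0.10 for a gene described as SPL1 (Aa_G349460).

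The 3 stage 1 libraries, from plants 4 weeks old, give these genes earlier in growth without cold. FLC stood there at 12.5 to 13.6 CPM, the most abundant RAP2-7 gene at a mean of 222.3 CPM and LFY at 5.47, 5.65 and 5.97 CPM. FLC was thus lower in every stage 1 library than in any of stage 2, and far above stage 4. SPL4 was at 0.442, 0.448 and 0.760 CPM at stage 1 and SPL8 at 1.88, 1.34 and 5.54 CPM. Both stayed at or below 7.58 CPM in all 6 libraries without cold.

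**Figure D2:**
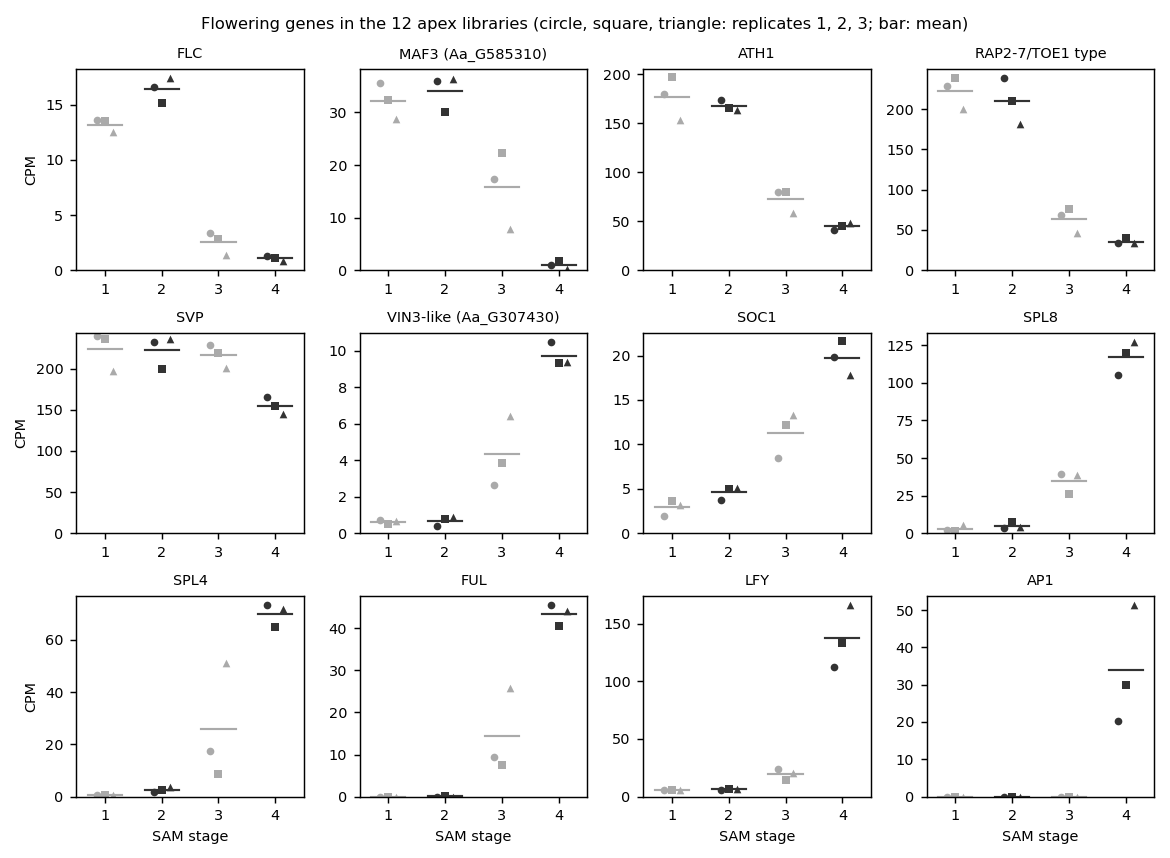
CPM of 12 flowering genes in each of the 12 SAM libraries by stage, with circles, squares and triangles for replicates 1, 2 and 3 and a bar for the mean of each stage. The groups compared, stages 2 and 4, are drawn dark, and FLC falls from 15.2 to 17.4 CPM to 0.827 to 1.27 CPM while LFY goes from 5.49 to 6.71 CPM to 112 to 166 CPM.

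Of 8 tested genes of floral meristem and organ identity 7 rose and none fell, 87.5% beside 33.7% of all genes. LFY (Aa_G61540, chromosome 8, 46457059 to 46459751), the regulator that gives a primordium floral identity, stood at 5.49, 6.71 and 6.35 CPM at stage 2 and at 112, 133 and 166 CPM at stage 4. It rose by 4.47 ± 0.19 with an edgeR adjusted p of 1.25e-11, and stage 3 was in between at 24.2, 14.6 and 20.7 CPM. AP1 (Aa_G283230, chromosome 2, 23713656 to 23717789), which acts with LFY, had no read in any stage 2 or stage 3 library and stood at 20.3, 29.9 and 51.3 CPM at stage 4. AP1 was at least 605-fold higher than a floor of 3 counts over the stage 2 group (adjusted p = 4.6e-05). Floors cover counting error only. AGL3 (SEP4, Aa_G675730), a SEPALLATA-type MADS-box gene, was at 0 in stage 2 and at 14.2, 15.7 and 28.8 CPM in stage 4, at least 349.4-fold higher (adjusted p = 3.35e-07).

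Floral organ genes were highest in 1 library, stage 4 replicate 3. AP3 (Aa_G300500), which with PI specifies petals and stamens, was at 0 before the cold and at 2.59, 6.87 and 43 CPM after it. PI (Aa_G68100) was at 0.959, 0.436 and 0.846 CPM and then at 9.85, 8.24 and 40.3 CPM. In both genes that library stood at least 4-fold above the other stage 4 replicates, and the stages did not overlap. PI rose by 4.69 ± 0.59 (edgeR adjusted p = 8.79e-06). AP3 was at least 312.4-fold higher (adjusted p = 0.0155), but its adjusted p was 0.202 with the 6 compared libraries alone and 0.17 with the 12 SAM libraries. A SEP2 gene (Aa_G743960) had the same pattern, with 0 at stage 2 and 1.27, 3.74 and 16.7 CPM at stage 4. It was at least 129.5-fold higher (adjusted p = 0.00471), and not called with the compared libraries alone (0.163) or in DESeq2 (0.202). A second SEP2 gene (Aa_G383480) reached 0.348, 0.824 and 5.30 CPM (adjusted p = 0.00814, and 0.285 in DESeq2).

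UFO (Aa_G355720), a cofactor of LFY, was the member that did not pass, with 41.5, 31.8 and 43.8 CPM before and 39.7, 33.5 and 45.5 CPM after the cold. Its change was 0.02 ± 0.14 (edgeR adjusted p = 0.931). A fit to the compared libraries alone called 4 members higher. The list median was 9.01 as fitted and 6.14 with the 5 genes absent from stage 2 at their bound. The summed CPM of the list was 38.92 to 50.95 at stage 2 and 199.9 to 398.5 at stage 4. On the deposited TPM scale, which divides by length, the stage 4 means were 111 for LFY, 44.8 for AP1, 31.9 for PI, 30.5 for UFO, 25.7 for AP3 and 25.2 for SEP4.

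**Figure D3:**
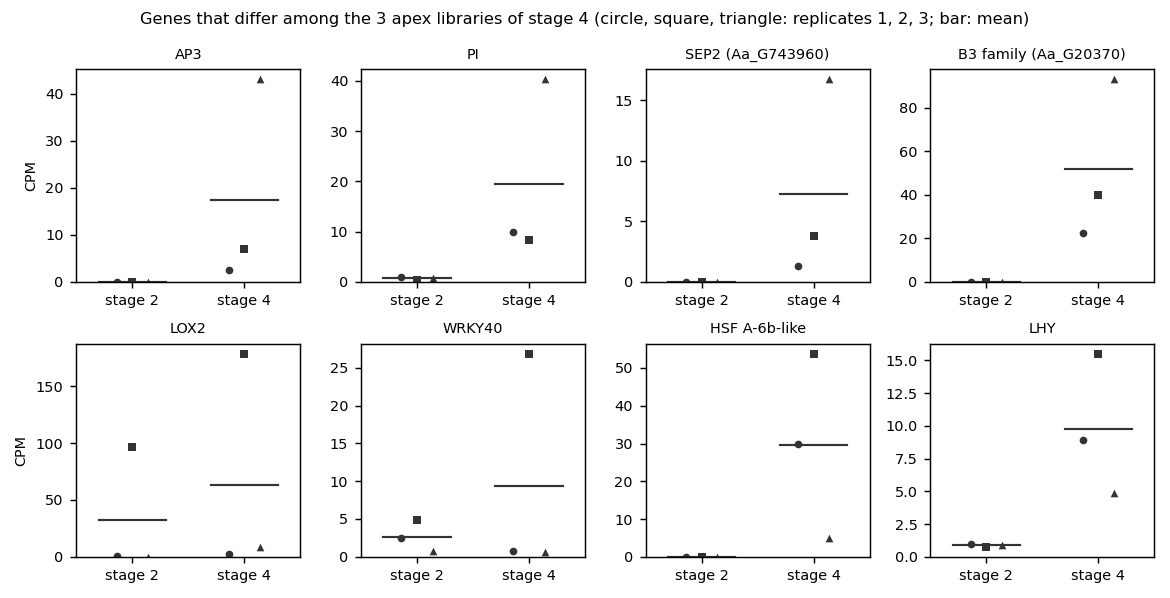
CPM of 8 genes in the 3 stage 2 and 3 stage 4 libraries, with circles, squares and triangles for replicates 1, 2 and 3 and a bar for each mean. AP3, PI, SEP2 and a B3 factor are highest in stage 4 replicate 3, and LOX2, WRKY40, HSF A-6b-like and LHY in stage 4 replicate 2.

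Outside the lists for flowering, a B3 family factor (Aa_G20370) was among the genes with the largest rises. It had 1 read at stage 2 and stood at 22.5, 39.8 and 93.1 CPM at stage 4 (edgeR adjusted p = 2.17e-06), highest again in replicate 3. A gene described only as a DNA binding protein (Aa_G92080) went from 0 to 11.8, 12.6 and 17.9 CPM, at least 251.8-fold higher (adjusted p = 3.5e-08). At stage 3 their means were 0.2523 and 0.04976 CPM, far below stage 4 in both.

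Genes with large falls were of several kinds. An AP2-like factor described as BBM (Aa_G192860), the BABY BOOM class that promotes embryonic and meristem growth, was at 47.3, 46.0 and 59.7 CPM and then at 0.695, 0.439 and 0.331 CPM. It fell by 6.62 ± 0.41 (edgeR adjusted p = 2.02e-09). A phenylalanine ammonia-lyase (Aa_G338680), the entry enzyme of phenylpropanoid synthesis, went from 215, 202 and 161 CPM to 0.618, 1.76 and 1.21 CPM, a fall of 7.39 ± 0.43 (adjusted p = 3.42e-09). Stage 3 means lay between, at 14.17 CPM for the BBM-described gene and 19.6 CPM for the lyase.

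A PLAC8-like gene (Aa_G165340) went from 6.88, 6.0 and 4.65 CPM to 0 in all stage 4 libraries, at least 121.2-fold lower (edgeR adjusted p = 6.88e-08). WRKY46 (Aa_G764860), a transcription factor of stress responses, and a thaumatin-like gene (Aa_G259500) each fell by 5.28 (SE 0.76 and 0.79). A lipid-transfer protein gene (Aa_G591030) was at 24.1, 22.3 and 0.423 CPM and then at 0, 0.220 and 0 CPM. Its call (adjusted p = 0.0305) was lost when any of the libraries except stage 2 replicate 3 was left out.

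Of 22 tested meristem maintenance genes 4 rose and 7 fell, with a median of 0.07. Of all genes 16.9% rose and 16.8% fell. STM (Aa_G408930), the KNOX gene that keeps meristem cells undifferentiated, was at 148, 133 and 157 CPM and then at 214, 203 and 212 CPM. It rose by 0.52 ± 0.12 (edgeR adjusted p = 0.00149) with no overlap. WUS (Aa_G197460), which maintains the stem cells from the organizing centre, was at 1.49, 1.31 and 3.99 CPM and then at 6.10, 6.43 and 6.51 CPM, a rise of 1.5 ± 0.32 (adjusted p = 0.00118).

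CLV3 (Aa_G155810), the stem cell peptide that limits WUS, was low throughout, at 0.480 to 1.15 CPM before and 0.220 to 0.541 CPM after the cold. Its change of −1.10 ± 0.45 did not pass (edgeR adjusted p = 0.0636), though it did without stage 2 replicate 1 (0.0311) or stage 4 replicate 1 (0.0471) and on the deposited TPM. Of 3 receptor kinases described as CLV1, Aa_G702580 fell by 1.24 ± 0.11 and Aa_G590900 by 0.45 ± 0.087, and Aa_G201460 had a change of 0.13 (adjusted p = 0.534). KNATM (Aa_G777300), a KNOX gene without a homeobox, went from 9.28, 10.7 and 11.5 CPM to 1.16, 0.714 and 0.552 CPM and fell by 3.64 ± 0.40. KNAT1 (Aa_G90040), the KNOX gene also called BP, fell by 0.38 ± 0.11.

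Boundary genes separate organs from the meristem, and of 10 tested members 6 fell and 2 rose, against 16.8% and 16.9% of all genes, with a median of −0.59. RAX3 (Aa_G23330), a MYB factor of axillary meristem formation, was at 2.35, 3.60 and 2.66 CPM and then at 0.386, 0.330 and 0.276 CPM, a fall of 3.07 ± 0.45 (edgeR adjusted p = 2.14e-05). Genes with the MYB description of the boundary factor LOF1 moved in opposite directions. One (Aa_G254960) fell by 1.53 ± 0.13 from 57 to 60.4 CPM to 18.9 to 22 CPM, and the other (Aa_G347600) rose by 2.84 ± 0.40 from 0.725 to 1.25 CPM to 7.09 to 8.61 CPM. MYB37, the RAX1 gene (Aa_G583140), rose by 1.10 ± 0.28.

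Of 31 tested cytokinin genes 12 fell and 6 rose, with a median of −0.68. The list had 58.1% called beside 33.7% of all genes, and its higher members were near the 16.9% of all genes. The type-A ARR genes, which are induced by cytokinin and dampen its signal, fell in 5 of 7 and rose in none. ARR5 (Aa_G561390) was at 9.65, 10.5 and 8.34 CPM and then at 1.35, 1.48 and 1.16 CPM, a fall of 2.83 ± 0.24 (edgeR adjusted p = 1.96e-08). The cytokinin oxidases, which degrade the hormone, fell in 4 of 6 and rose in none, and the most abundant (Aa_G273140) went from 115, 93.6 and 102 CPM to 13.6, 14.7 and 16.8 CPM, a fall of 2.79 ± 0.15 (adjusted p = 1.07e-10).

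LOG enzymes, which release active cytokinin, rose in 2 of 4. The larger rise (Aa_G414840) was from 1.12, 1.36 and 1.63 CPM to 11.2, 11.1 and 9.87 CPM, or 2.97 ± 0.18 (edgeR adjusted p = 2.76e-10). Type-B ARR genes, the activators of the pathway, rose in 2 of 5, among them Aa_G20540 by 0.61 ± 0.094. Histidine phosphotransfer proteins, which relay the signal, rose in 2 of 5 and fell in 2, with Aa_G388620 higher by 2.50 ± 0.41 and the largest fall at 1.74. Of the AHK receptors 1 of 3 fell and none rose. These family counts are small and were not tested against the 16.9% of all genes that rose and 16.8% that fell.

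Gibberellin genes changed in both directions, with 8 of 22 higher and 5 lower (16.9% and 16.8% of all genes) and a median of 0.14. Lower members numbered 3 without stage 2 replicate 1 or without stage 4 replicate 3. The list, matched by description, also holds a gene described as defender against cell death 2. That description names neither gibberellin nor a DELLA protein, and the counts were not recomputed without it. GA2OX enzymes inactivate gibberellin, and 2 of them moved oppositely. Aa_G655020 was at 1.97, 3.11 and 1.63 CPM and then at 32.7, 33.1 and 31.9 CPM, a rise of 3.85 ± 0.31 (edgeR adjusted p = 7.17e-08). Aa_G418770 was at 27.9, 19.1 and 23.9 CPM and then at 1.27, 1.10 and 1.21 CPM, a fall of 4.29 ± 0.34. The synthesis enzymes GA20OX rose in 3 of 5. The DELLA repressor described as RGA1 (Aa_G736670) fell by 0.98 ± 0.096, from 166 to 190.0 CPM to 85.9 to 91.1 CPM.

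Auxin genes had 14 of 94 higher and 24 lower, 40.4% beside 33.7% of all genes, with a median of −0.14. ARF5 (Aa_G329270), the response factor MONOPTEROS that starts organs and flowers at the meristem flank, was at 301, 299 and 264 CPM and then at 674, 657 and 741 CPM, a rise of 1.26 ± 0.11 (edgeR adjusted p = 1.96e-08). An ARF3-like gene (Aa_G305810) rose by 0.91 ± 0.092 and ARF10 (Aa_G18090) fell by 1.19 ± 0.11. Of 15 tested ARF genes 4 rose and 4 fell, with a median of −0.03. The IAA repressors fell in 9 of 22 and rose in 1, and IAA13 (Aa_G208750) fell by 1.51 ± 0.095, from 66.8 to 92.6 CPM to 26.8 to 28.2 CPM. GH3 enzymes, which conjugate auxin, included a fall of 5.04 ± 0.52 (Aa_G161180) and a rise of 1.81 ± 0.19 (Aa_G288640).

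For abscisic acid 9 of 25 genes were lower and 2 higher, or 1 higher without stage 2 replicate 1, with a median of −0.08. That is 44% of the list beside 33.7% of all genes. The PYL receptors fell in 4 of 8, among them PYL8 (Aa_G94220), which went from 24.5, 22.8 and 28.8 CPM to 5.29, 5.49 and 3.97 CPM (a fall of 2.36 ± 0.16, edgeR adjusted p = 6.58e-10). PYL4 (Aa_G471890) fell by 2.35 ± 0.24. The degrading enzyme CYP707A (Aa_G357050) fell by 2.25 ± 0.30, with stage 4 replicate 2 at 13.6 CPM and the others at 4.40 and 5.35 CPM.

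DRM1 genes mark dormant buds in several plants, and 2 of the 4 tested here rose. Aa_G438760 was at 38.4, 16.1 and 11.5 CPM and then at 233, 282 and 221 CPM, a rise of 3.47 ± 0.51 (edgeR adjusted p = 8.48e-05). Aa_G430660 rose by 1.55 ± 0.44 (adjusted p = 0.0129), a call lost without stage 2 replicate 3 (0.0532), which left 1 of the 7 tested dormancy and branching genes higher. With all libraries 28.6% of that list passed, below the 33.7% of all genes. The stage 3 mean of Aa_G438760 was 296.7 CPM, above each of the stage 4 libraries.

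Of 29 cold acclimation genes 15 rose and 2 fell, with a median of 0.48. That is 58.6% of the list, beside 33.7% of all genes. Without stage 4 replicate 2, which had the highest summed CPM of the list, 13 rose and 1 fell. That library stood apart for COR15B (Aa_G574050), at 0 in stage 2 and at 0.386, 6.87 and 0.0552 CPM in stage 4, and for CBF4 (Aa_G375200), at 1.7, 6.87 and 1.71 CPM in stage 4. Both are counted among the rises and were named after their values were seen. COR413-PM1 and Aa_G56450 below passed in every alternative run, with that library left out too. The COR genes, cold-regulated membrane and protective proteins, rose in 7 of 8, and the other had a fitted change of −4.7 that did not pass. COR413-PM1 (Aa_G81680) was at 37.2, 42.5 and 45.3 CPM and then at 150.0, 228 and 180.0 CPM, a rise of 2.16 ± 0.26 (edgeR adjusted p = 7.38e-06). A gene described as cold resistance protein 1 (Aa_G56450) went from 2.56, 3.11 and 3.51 CPM to 22.9, 33.4 and 28.1 CPM, a rise of 3.20 ± 0.42. The lower members were an ERD7 gene (Aa_G122460) and the dehydrin ERD14 (Aa_G87790, 166, 195 and 216 CPM before, 75.2, 139 and 81.6 CPM after, adjusted p = 0.0249). Both calls were lost without stage 2 replicate 3 or stage 4 replicate 1 or 3. That of ERD7 was also lost without stage 2 replicate 1 or stage 4 replicate 2, and that of ERD14 without stage 2 replicate 2 or with the 12 SAM libraries alone. LEA proteins, which protect cells from drying, were higher in 6 of 13 and lower in 2 (61.5% beside 33.7% of all genes), with 3 higher without stage 2 replicate 1, stage 2 replicate 2 or stage 4 replicate 3.

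Of 81 heat shock genes 32 rose and 6 fell, or 3 fell without stage 2 replicate 3, with a median of 0.41. The list had 46.9% called beside 33.7% of all genes. The chaperones themselves rose in 28 of 58 and fell in 2. A class III small heat shock protein (Aa_G610360) had no read at stage 2 and stood at 37.6, 54.4 and 19.5 CPM at stage 4, at least 664.7-fold higher (edgeR adjusted p = 0.0176). Another gene (Aa_G318690) went from 0 to 16.5, 31.3 and 19.6 CPM, at least 401.8-fold higher (adjusted p = 0.00701). At stage 3 the latter varied widely between replicates, at 0.445, 35.3 and 103 CPM, and replicate 1 was also the lowest for the former, at 0.556 CPM. The factor HSF A-6b-like (Aa_G695970) had 1 read at stage 2 and was at 29.9, 53.6 and 4.96 CPM at stage 4 (adjusted p = 0.0107). An abundant HSP70 (Aa_G85370) went the other way, from 5776 to 6152.8 CPM to 4693.4 to 4740.2 CPM, a fall of 0.34 ± 0.089.

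Cytosolic ribosomal proteins rose in 56 of 173 and fell in 6, with a median of 0.21, but 22 rose without stage 2 replicate 1 and 37 without stage 4 replicate 1. The list had 35.8% called beside 33.7% of all genes, and over all genes the number higher went from 3613 to 2867 and 3177 in the same fits. RPL7a (Aa_G364330) was at 326, 376 and 361 CPM and then at 530.0, 541 and 515 CPM, a rise of 0.58 ± 0.089 (edgeR adjusted p = 3.42e-05). An RPL13a gene (Aa_G311120) fell by 2.35 ± 0.21, with means of 12.25 CPM before and 2.435 CPM after the cold. Histones rose in 14 of 25 and fell in 2 (64% beside 33.7% of all genes), with a median of 0.27, or rose in 8 without stage 2 replicate 1 and fell in 1 without stage 2 replicate 3 or stage 4 replicate 3. An H2A gene (Aa_G33840) rose by 1.22 ± 0.10, from 38.9 to 49.5 CPM to 96.6 to 114 CPM.

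DNA replication genes had 9 of 72 higher and 13 lower, with a median of −0.08, and mitosis genes 6 of 36 higher and 4 lower, with a median of 0.08. Of all genes 16.9% were higher and 16.8% lower. Among replication genes 4 were higher without stage 2 replicate 1 and 5 without stage 2 replicate 3, and 7 or 8 were lower without any 1 of the stage 4 replicates. For mitosis the counts were 3 and 2 without stage 2 replicate 3. D-type cyclins and their inhibitors, which set entry into the cycle, had 5 of 16 higher and 4 lower (56.2% beside 33.7% of all genes), or 2 higher without stage 2 replicate 1 and 3 without stage 4 replicate 3. The cyclins rose in 3 of 8 and fell in 2, with a median of 0.12. Their inhibitors rose in 2 of 8 and fell in 2, with fitted changes of −1.59 to 1.93. These compare with 16.9% higher and 16.8% lower of all genes, and the members named next are among the falls. The CDK inhibitor KRP3 (Aa_G138980) was at 74.5, 63.4 and 72.2 CPM and then at 27.1, 27.4 and 26.6 CPM, a fall of 1.37 ± 0.086 (edgeR adjusted p = 3.66e-10). A cyclin D3 gene (Aa_G97330) fell by 0.95 ± 0.093, from 90.7 to 109 CPM to 46.0 to 55.4 CPM.

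Leaf polarity and growth genes had 7 of 36 higher and 6 lower, 36.1% beside 33.7% of all genes, with 3 or 4 higher without stage 2 replicate 1 or 3 or stage 4 replicate 2 or 3. GRF4 (Aa_G668300), a factor of cell number in leaves, was at 39.5, 41.1 and 39.6 CPM and then at 15, 15.8 and 12.5 CPM, a fall of 1.47 ± 0.098 (edgeR adjusted p = 6.58e-10). It was the 1 GRF gene of 7 that fell, and 2 rose, beside 16.8% and 16.9% of all genes, with a family median of 0.1. The tested KAN gene rose by 0.36. The HD-ZIP III gene ATHB-15 (Aa_G219750), of meristem and vascular patterning, fell by 0.87 ± 0.079. Clock genes had 2 of 17 higher and 4 lower, 35.3% beside 33.7% of all genes. LHY (Aa_G177850), a morning factor of the clock, was at 0.763 to 0.959 CPM and then at 8.96, 15.5 and 4.85 CPM (3.47 ± 1.0, adjusted p = 0.0179), and lost its call without any 1 of the stage 2 replicates or without stage 4 replicate 2. The clock counts were 1 higher without stage 2 replicate 2 or 3 or stage 4 replicate 2, and 2 lower without stage 2 replicate 1 or any 1 of the stage 4 replicates. The labels used here do not give the time of day of harvest, so its part in these values was not tested.

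Jasmonate genes had 2 of 12 higher and 2 lower, 33.3% beside 33.7% of all genes. Their summed CPM was 234.4 to 489.4 at stage 2 and 188.0 to 538.7 at stage 4, so the groups overlapped. The JAZ repressor Aa_G68580 was at 80.9, 59.2 and 44.1 CPM and then at 14.6, 37.4 and 15.2 CPM (edgeR adjusted p = 0.0291). Its call was lost in 7 of 15 alternatives, among them without stage 2 replicate 1 or 2 or stage 4 replicate 1 or 3, which left 1 lower member, and 1 was higher without stage 2 replicate 3.

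**Figure D4:**
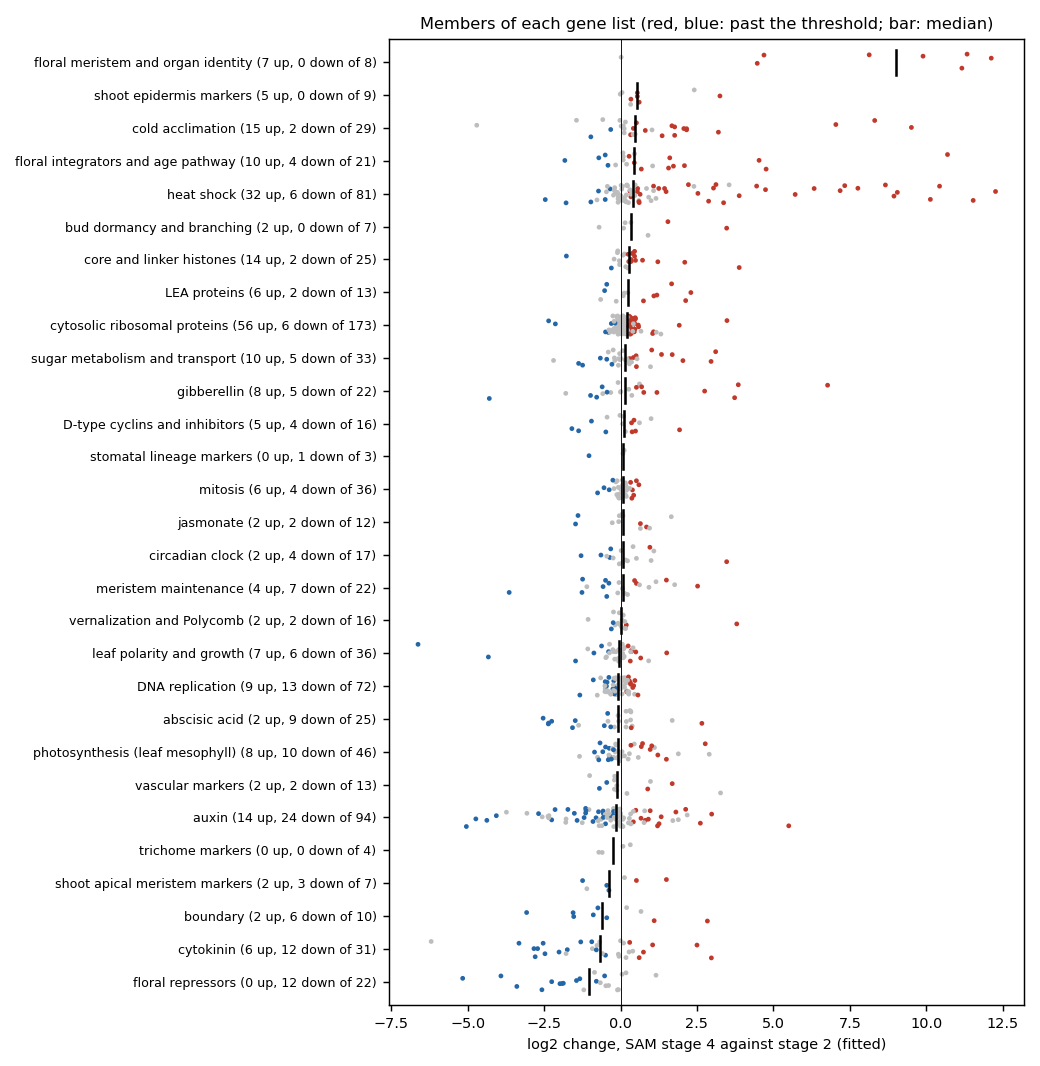
Fitted log2 change from SAM stage 2 to stage 4 (horizontal axis) of each tested member of the 29 gene lists, 1 list a row, with members past the test in red (higher) or blue (lower), the others in grey and the list median as a bar. Floral identity genes (median 9.01) and floral repressors (median −1.03) lie at the ends, and vertical scatter within a row has no meaning.

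The same cold period was compared in axillary buds to see which changes differed in the apex. In AB 10945 genes (51.1%) differed between stages 4 and 2, 5256 (24.5%) higher and 5689 (26.6%) lower. Of the genes higher in the apex 2109 were also higher in the bud, which is 58.4% of the apex genes and 40.1% of the bud genes. Of those lower in the apex 2136 were also lower in the bud, or 59.3% and 37.5%. The test of the difference, the interaction of tissue and cold, called 5037 genes (23.5%), 2868 with a more positive change in the apex and 2169 with a more negative one. In 349 genes the apex rose while the bud fell and in 166 the reverse held. All of these passed the interaction test, but that test takes the difference of the same changes, so passing it adds nothing to their choice.

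FLC fell in both tissues and more in the apex. In AB it was at 16.0, 13.8 and 12.2 CPM and then at 3.95, 3.72 and 3.25 CPM, and the change in the apex was lower than in the bud by 1.97 ± 0.33 (SE, edgeR adjusted p = 0.0002). ATH1 did not pass in the bud. In AB it was at 47.2, 58.8 and 59.8 CPM and then at 57.9, 45.9 and 53.4 CPM, a change of −0.08 ± 0.12, and the interaction was −1.83 ± 0.17 (adjusted p = 3.64e-07). ATH1 at stage 2 was thus higher in every apex library than in every bud library, and at stage 4 the tissues were close.

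LFY rose in both tissues, with 1.19 to 1.99 CPM in AB stage 2 and 29.4 to 41.5 CPM in AB stage 4. Its rise in the bud was 4.55 ± 0.23, and the difference between the tissues was −0.08 ± 0.29 (edgeR adjusted p = 0.878). SOC1 rose by 2.46 ± 0.20 in the bud and the VIN3-like gene Aa_G307430 by 3.05 ± 0.32, with differences of −0.36 ± 0.27 and 0.75 ± 0.47 that did not pass. AP1 reached 1.06 to 2.20 CPM in AB stage 4 and was absent from AB stage 2, so its interaction rests on groups at 0 and is not given.

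GA2OX Aa_G655020, which rose in the apex, fell in the bud from 137, 74.9 and 73.3 CPM to 43.5, 42.6 and 34.3 CPM. The difference of the changes was 5.09 ± 0.38 (edgeR adjusted p = 3.23e-07). DRM1 Aa_G438760 was at 332, 145 and 67.1 CPM and then at 246, 238 and 196 CPM in AB, where it did not pass (adjusted p = 0.589), and its interaction was 3.15 ± 0.67 (adjusted p = 0.00336). WUS was at 7.27 to 8.94 CPM in AB stage 2 and 6.84 to 8.17 CPM in AB stage 4, with an interaction of 1.59 ± 0.44 (adjusted p = 0.0123). In each of these 3 genes every apex library at stage 2 was below every bud library.

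Among the genes with the smallest adjusted p in the interaction was a plasma membrane proton pump, H(+)-ATPase 2 (Aa_G620370). In the apex it went from 44.7, 44.3 and 37.7 CPM to 83.1, 129 and 111 CPM, and in the bud from 315, 366 and 265 CPM to 75.1, 88.7 and 83.1 CPM (interaction 3.29 ± 0.22, edgeR adjusted p = 6.92e-08). SHI-related sequence 7 (Aa_G526710), of a family that promotes auxin synthesis, rose in the apex from 0.800 to 1.36 CPM to 5.29 to 9.43 CPM and fell in the bud from a mean of 25.23 CPM to one of 1.444 CPM (6.78 ± 0.47, adjusted p = 6.95e-08). A kinase gene (Aa_G375490) moved oppositely, from 166 to 184 CPM to 64.5 to 71.3 CPM in the apex and from 45.0 to 48.4 CPM to 85.8 to 103 CPM in the bud (−2.34 ± 0.17, adjusted p = 3.65e-08). A TT1-like zinc finger gene (Aa_G114710) rose in the apex from 3.93 to 5.67 CPM to 11.3 to 11.8 CPM and fell in the bud from 33.4 to 43.6 CPM to 7.46 to 10.3 CPM (3.45 ± 0.28, adjusted p = 2.3e-07). WRKY14 (Aa_G279730), a transcription factor, went the same way, with 4.85 to 6.47 CPM and then 10.2 to 11.7 CPM in the apex and 14 to 17.3 CPM and then 3.65 to 4.58 CPM in the bud.

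**Figure D5:**
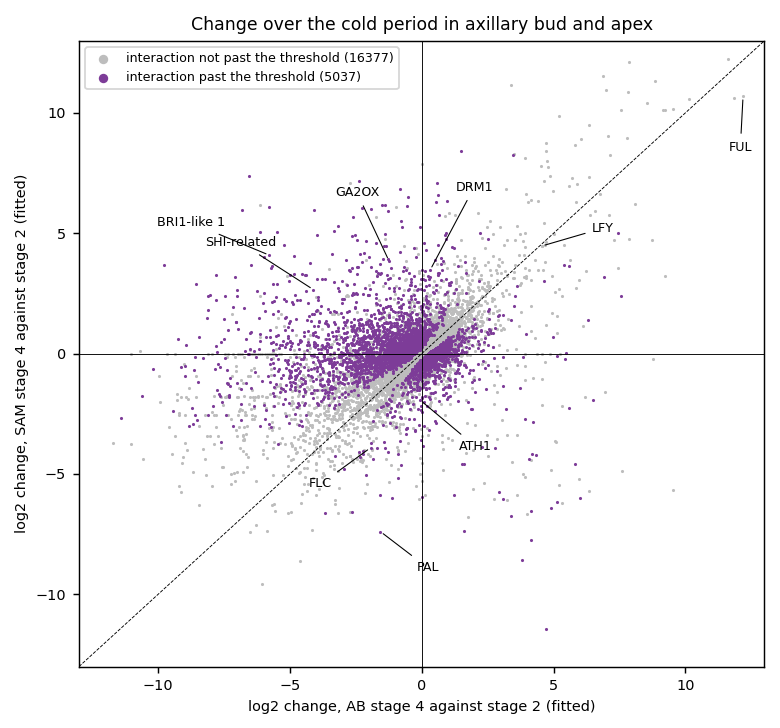
Fitted log2 change over the cold period of each tested gene in axillary buds (horizontal axis) and in the apex (vertical axis), with the 5037 genes past the interaction test in purple and the diagonal marking equal change. ATH1 lies near 0 in the bud and at −1.91 in the apex, and GA2OX, DRM1 and the SHI-related gene lie above the diagonal.

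By list, 13 of 29 cold acclimation genes changed more positively in the apex than in the bud and 1 more negatively, beside 13.4% and 10.1% of all genes. For the 2 COR genes described above the bud did not pass. COR413-PM1 was at 124 to 175 CPM in AB stage 2 and 101 to 127 CPM in AB stage 4, with an interaction of 2.65 ± 0.35 (edgeR adjusted p = 5.97e-05). The gene Aa_G56450 was at 15.4 to 19.8 CPM and then at 18.6 to 25.3 CPM in AB, with an interaction of 2.89 ± 0.55 (adjusted p = 0.00132). For core and linker histones 13 of 25 changed more negatively in the apex and none more positively, and for DNA replication the numbers were 26 and 2 of 72. In the bud 22 of 25 histones and 40 of 72 replication genes were higher after the cold, beside 24.5% of all genes. Auxin genes had 22 of 94 with a more positive and 13 with a more negative change in the apex. In the bud 56 of the 94 fell, beside 26.6% of all genes. For floral repressors the interaction called 3 and 7 of 22, the 7 including FLC, ATH1, SVP (−0.70) and the 3 RAP2-7 genes.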

How the data were processed

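Total RNA, treated with DNase, was sequenced as single-end reads, per the labels' protocols, and FastQC is named in the submitters' processing notes. Alignment, counting and strand settings are not given in the sources used here, so genes that overlap on opposite strands cannot be told apart. The authors deposited, per the file headers, a count of total mapped reads per gene and library and the TPM (transcript abundance per 1000000) that they computed. A further 46 per-library columns and 18 columns of the authors' own comparisons were not used. Gene names come from the deposited descriptions, informative for 20600 of 34220 genes, and may belong to close relatives. Coordinates, which other than gene starts and ends hold no measurement, are those of the version 5 assembly, onto which version 4 models had been moved. Models at more than 1 locus (4750) have uncertain counts. Coding lengths hold no UTRs.

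Counts were fitted with edgeR 4.0.16 (R 4.3.3) with TMM scaling, a filter at a minimum count of 10 (total 15) and a quasi-likelihood test with 1 coefficient per tissue and stage over all 23 libraries. P-values were adjusted over 21414 genes by Benjamini-Hochberg with a threshold of 0.05. The SE is the log2 change divided by the root of the F statistic. For genes at 0 in a group, the fold is a bound that sets 3 counts for that group as the floor. The libraries compared held 16318298 to 26218502 counts. Alternatives were DESeq2 1.42.0, RLE scaling, no filter, other sets of libraries, a replicate block, limma 3.58.1 on log2(TPM + 1) and log2(TPM + 0.1), and leaving out each library.

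The comparison and the 29 gene lists (1131 genes, matched by description) were chosen with earlier results of these data known. Named genes are key flowering and meristem genes, the 10 largest rises and falls at 5 CPM or more with libraries that do not overlap, up to 3 genes per direction of each list, the 10 genes with the smallest interaction p and the 5 largest differences in CPM in each direction. Patterns that match AP3, PI, TFL1, AP2 and descriptions called uninformative were corrected after values had been seen. No sequences are shown.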

Additional observations from a re-analysis of the deposited data

Results flagged for a closer look

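Among the 107 genes named by identifier here, 46 had a change over the cold that differed between the apex and the axillary bud by edgeR's interaction test (adjusted p under 0.05). Some of them were named for their small interaction p or for their change in the apex, so the number describes the choice of genes only. Values are the log2 change in the apex less that in the bud.

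The change was more positive in the apex in 20 genes. They were SHI-related sequence 7 (6.78), GA2OX Aa_G655020 (5.09), the second SPL4-described gene Aa_G438780 (4.04), CBF4 Aa_G375200 (3.76, with stage 4 replicate 2 apart), DRM1 Aa_G430660 (3.46) and Aa_G438760 (3.15), the TT1-like gene (3.45), H(+)-ATPase 2 (3.29) and the LOF1-described gene Aa_G347600 (3.28). Others were the cold resistance protein 1 gene (2.89), WRKY14 (2.83), COR413-PM1 (2.65), ERD14 (2.18), the LOG gene Aa_G414840 (1.83) and WUS (1.59). The tonoplast water channel (1.05), the CLV1-described gene Aa_G590900 (0.98), ERD7 Aa_G122460 (0.81), the CLV1-described gene Aa_G201460 (0.64) and the type-B ARR Aa_G20540 (0.46) had smaller differences. The SPL4-described gene Aa_G438780 was low in the apex libraries compared. Its apex change did not pass in the main fit or in any of 15 alternatives, where it ranged from 0.49 to 3.8, and its bud side is not given here.

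Among floral regulators the change was more negative in the apex for FLC (−1.97), ATH1 (−1.83), the RAP2-7 genes Aa_G234670 (−1.24), Aa_G158280 (−0.83) and Aa_G207710 (−0.64), UFO (−0.76), SVP (−0.70) and LHP1 (−0.36). In meristem and boundary genes it was more negative for KNATM (−2.81), RAX3 (−2.54), the CLV1-described gene Aa_G702580 (−0.49) and KNAT1 (−0.47). The BBM-described gene had a difference of −2.94, as did the GH3 gene Aa_G161180 (−2.94). Among hormone genes GA2OX Aa_G418770 (−1.96), IAA13 (−1.41), the cytokinin oxidase Aa_G273140 (−0.94) and PYL8 (−0.66) also changed more negatively.

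Growth genes with a more negative change in the apex were cyclin D3 Aa_G97330 (−1.07), KRP3 (−0.92) and GRF4 (−0.40). The phenylalanine ammonia-lyase (−5.82), the kinase gene Aa_G375490 (−2.34), sucrose synthase 1 (−1.25) and photosystem I subunit O (−0.54) followed the same direction. The lipid-transfer protein gene Aa_G591030 had a fitted difference of −11.90, which is no measure of size because its stage 4 apex libraries had few or no reads. The apex side rests on 2 stage 2 libraries at 24.1 and 22.3 CPM, the other being at 0.423 CPM. In the alternatives the apex change alone ranged from −10.99 to −4.28, and the bud side is not given here.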

How the results depend on the processing

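The 7218 genes called between SAM stages 4 and 2 became 7430 in DESeq2, 7209 with RLE scaling, 6930 without the filter, 6560 with only the compared libraries, 7066 with the 12 SAM libraries, 6921 without models at more than 1 locus, and 6933 and 6991 on TPM with pseudocounts of 1 and 0.1. On TPM 43.5% and 43% of calls were higher, against 50.1%. Requiring a change of at least 1 on the log2 scale left 2164 genes, 1021 higher and 1143 lower. Leaving out 1 library gave 5791 to 6552 genes, 2867 to 3352 of them higher and 2826 to 3200 lower. The interaction called 5284 genes in DESeq2, 4951 with RLE scaling, 4799 without the filter, 4934 with only the compared libraries, and 5343 and 5105 on TPM. Leaving out 1 library gave 3981 to 4858, with 2376 to 2861 more positive and 1552 to 2109 more negative in the apex. Of the recomputed values of named genes, 3033 kept their side of the threshold, 97 lost their call and 10 gained one. No value of a called gene changed sign, while fitted changes near 0 of genes that were not called, such as UFO, TOE2 and MAF2, took either sign.

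A replicate block was fitted because libraries share replicate numbers. Deviations of same-numbered libraries of stages 2 and 4 correlated at 0.0663, 0.26 and 0.0847, and those of different-numbered libraries at −0.223 to 0.153. Stage 4 replicates 2 and 3 correlated best with their own number, and replicate 1 with stage 2 replicate 3 (0.153). These values do not settle whether the numbers pair the samples, and the main fit took no pairing. With the replicate block 7245 genes were called over all libraries (3637 higher, 3608 lower) and 5920 with only the compared libraries (3046 and 2874), and the interaction called 5026 and 5192.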

Other observations

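Sugar metabolism and transport genes had 10 of 33 tested members higher and 5 lower in the apex after the cold (45.5% beside 33.7% of all genes), with a median of 0.16, and 3 lower without stage 2 replicate 1, stage 4 replicate 2 or stage 4 replicate 3. Sucrose phosphate synthases, which make sucrose, rose in 5 of 11 and fell in none. The gene Aa_G642610 was at 49.5, 44 and 40.1 CPM and then at 104, 113 and 122 CPM, a rise of 1.34 ± 0.095 (edgeR adjusted p = 1.54e-09). A neutral invertase (Aa_G385140), which splits sucrose, was at 12.6, 13.3 and 12.6 CPM and then at 43.6, 49.9 and 65 CPM and rose by 2.04 ± 0.22. Of 6 tested invertases it was the 1 that rose, and 2 fell, with a median of −0.37. Neither the synthase nor the neutral invertase overlapped between the stages. Sucrose synthase 1 (Aa_G252740) fell by 1.37 on the log2 scale.

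Photosynthesis genes had 8 of 46 higher and 10 lower, 39.1% beside 33.7% of all genes, with a median of −0.09, and 5 higher without stage 2 replicate 1 or stage 4 replicate 2. The photosystem I subunit O gene (Aa_G368360) was at a mean of 168.1 CPM and then of 102.6 CPM, a fall of 0.71. Their summed CPM was 10710 to 13930 at stage 2 and 10100 to 12940 at stage 4, with overlap.

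Among abundant transcripts, the water channel gene PIP1-1 (Aa_G299880) was at 523, 579 and 567 CPM and then at 1543.2, 1552.8 and 1529.9 CPM. It rose by 1.47 ± 0.11 (edgeR adjusted p = 2.42e-09). A tonoplast water channel (Aa_G25330) was at 839, 852 and 827 CPM and then at 1502.1, 1491.1 and 1681.2 CPM, a rise of 0.89. A gene described as beta glucosidase 18 (Aa_G669290) was at 5731.2, 4120.5 and 1498.2 CPM and then at 1359.3, 1191.2 and 1379 CPM. Its call (adjusted p = 0.0361) was lost when any library compared except stage 2 replicate 3 was left out.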
